A study of Homo sapiens with 6 samples.

Results

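Blood clotting at the cell surface starts with tissue factor and is held back by inhibitors and by the protein C pathway, and 8 genes of this system were followed in TPC1 cells. They were thrombomodulin (THBD), the protein C receptor (PROCR), protein S (PROS1), tissue factor (F3), its inhibitor TFPI, the related Kunitz inhibitor TFPI2 and the receptors F2R and F2RL1, which proteases switch on by cutting. Each of the 8 was found by its gene name in a table of 31348 genes, and each had reads in all 6 libraries. THBD was taken up because it had already been seen to be higher after siSRPX2-1, and the other 7 because they act with it. The contrast between the siRNAs therefore describes these genes and does not test them.

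TPC1 cells were derived from a papillary carcinoma of the human thyroid and carry a RET/PTC rearrangement. RNA was sequenced from 3 biological repeats transfected with siControl and 3 transfected with siSRPX2-1, an siRNA against SRPX2, which codes for a secreted protein with sushi repeats. Both groups stand for 1 cell line and 1 siRNA. The labels class siControl cells as wild type and siSRPX2-1 cells as SRPX2 knockdown, and they list adipogenic differentiation and day 2 for all 6 samples, which the methods of the study do not describe.

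The libraries held between 63824315 and 75828542 counted reads. SRPX2 itself had 243, 335 and 308 reads after siControl and 140, 157 and 263 after siSRPX2-1, in the order of replicates 1, 2 and 3. Its log2 difference was −0.71 (standard error 0.328, unadjusted p = 0.0683 from edgeR) in a fit of all 31348 genes. With the replicate block it was −0.76 (standard error 0.241, unadjusted p = 0.0219, adjusted p = 0.835 from edgeR). Scaled to library size, SRPX2 was at 0.490 of siControl in pair 1, 0.480 in pair 2 and 0.865 in pair 3 (95% interval 0.731 to 1.02 in pair 3, from counting error only). SRPX2 was well below siControl in pairs 1 and 2, and the interval of pair 3 included no difference. Its mean FPKM (fragments per kilobase of transcript, scaled to library size) was low, at 0.501 after siControl and 0.313 after siSRPX2-1. It missed the mean of 0.5 over all 6 libraries that was asked of tested genes. In FPKM the groups overlapped, with siSRPX2-1 replicate 3 at 0.462 and siControl replicate 1 at 0.448. The libraries of replicate 2 stood apart from the other 4 on the first principal component, which held 61.2% of the variance.

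Tissue factor, a membrane protein, binds factor VII and starts clotting, and TFPI blocks the complex that they form. The thrombin made in this way cuts fibrinogen, and it also cuts F2R, the thrombin receptor PAR1. F2RL1 (PAR2) is cut by trypsin-like proteases and by tissue factor with factor VII, and thrombin cuts it poorly. Thrombin bound to thrombomodulin turns into an anticoagulant, since it then activates protein C, which PROCR presents and protein S assists. THBD, PROCR and TFPI are best known from endothelium, and F3 and F2RL1 are often high in carcinoma cells.

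Endothelial markers were close to 0 in these cells. The summed FPKM of 10 endothelial markers lay between 0.308 and 0.521 after siControl and between 0.283 and 0.595 after siSRPX2-1, and CDH5, KDR and EMCN had no row. The platelet list of 6 genes lay between 0.163 and 0.446 over all 6 libraries. The thyroid identity was partial. PAX8, a thyroid transcription factor, had between 45312 and 60285 reads per library, FOXE1 between 2302 and 3724 and thyroglobulin (TG) only between 79 and 148, and TSHR, SLC5A5 and NKX2-1 had no row. Of the epithelial markers, KRT8 and KRT18 had a mean FPKM of 56.0 and 71.0, while CDH1 was at 0.0130.

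The genes lie on 6 chromosomes. Coordinates are those of the deposited table and lie at the places of these genes on GRCh38 in GENCODE release 29, where all but F2RL1 differ from it at an end. The widest such gap is that of TFPI, which ends at 187565760 in GENCODE, at its 5′ side. THBD lies on chromosome 20 from 23045633 to 23049672 and is a gene of 1 exon. PROCR lies on the same chromosome from 35172072 to 35215904. F2R (76716126 to 76735770) and F2RL1 (76818933 to 76835315) are neighbours on the plus strand of chromosome 5. F3 lies on chromosome 1 (94529173 to 94541759), TFPI on chromosome 2 (187464230 to 187554492), TFPI2 on chromosome 7 (93885396 to 93890753) and PROS1 on chromosome 3 (93873051 to 93980003). No other gene in GENCODE release 29 overlaps THBD, F3 or F2RL1. The antisense transcript AL356652.1 shares 12.9% of the exonic bases of PROCR and had between 0 and 5 reads per library, and the antisense partners of TFPI (17 to 37 reads) and TFPI2 (0 to 4 reads) were also low. MMP24OS, on the strand opposite PROCR, had between 2290 and 3833 reads and shares 0 exonic bases with it. PROS1 has a closely similar pseudogene, PROS2P, on the same chromosome, so its reads are less certain than those of the other genes. Counts are per gene, and splice forms such as TFPI alpha and beta were not separated.

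Promoter sequences from RefSeq (GRCh38.p14), each with 250 bases before and 50 after the gene's start, were found for 6 of the 8 genes, the others being THBD and F2R. The RefSeq starts of PROS1, TFPI and F2RL1 lie inside the genes as the deposited table gives them, so each window shows 1 of the possible starts. The first 4 sequences belong to genes that differed between the replicate numbers, of which PROCR was higher and the others lower in replicate 2. Capitals mark the GC box, searched as GGGCGG on both strands.

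TFPI, chr2:187554386-187554685, minus strand: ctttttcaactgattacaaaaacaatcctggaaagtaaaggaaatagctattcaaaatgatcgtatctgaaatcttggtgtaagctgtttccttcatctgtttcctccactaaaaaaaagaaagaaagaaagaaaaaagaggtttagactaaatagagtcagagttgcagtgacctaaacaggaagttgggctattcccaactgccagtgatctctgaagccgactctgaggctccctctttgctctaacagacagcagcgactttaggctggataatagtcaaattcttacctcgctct

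PROS1, chr3:93973847-93974146, minus strand: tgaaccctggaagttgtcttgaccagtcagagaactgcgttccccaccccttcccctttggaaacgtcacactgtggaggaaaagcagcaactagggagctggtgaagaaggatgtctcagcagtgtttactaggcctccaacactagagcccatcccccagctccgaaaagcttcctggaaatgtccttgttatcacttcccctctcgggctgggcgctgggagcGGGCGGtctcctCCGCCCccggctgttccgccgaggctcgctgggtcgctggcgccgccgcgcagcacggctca

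F2RL1, chr5:76818780-76819079, plus strand: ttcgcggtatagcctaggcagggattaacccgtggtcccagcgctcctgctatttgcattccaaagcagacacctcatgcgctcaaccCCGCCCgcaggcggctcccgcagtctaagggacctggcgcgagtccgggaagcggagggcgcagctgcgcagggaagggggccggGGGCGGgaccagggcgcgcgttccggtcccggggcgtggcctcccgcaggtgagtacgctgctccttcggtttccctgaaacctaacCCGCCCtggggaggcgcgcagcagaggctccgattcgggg

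PROCR, chr20:35171822-35172121, plus strand: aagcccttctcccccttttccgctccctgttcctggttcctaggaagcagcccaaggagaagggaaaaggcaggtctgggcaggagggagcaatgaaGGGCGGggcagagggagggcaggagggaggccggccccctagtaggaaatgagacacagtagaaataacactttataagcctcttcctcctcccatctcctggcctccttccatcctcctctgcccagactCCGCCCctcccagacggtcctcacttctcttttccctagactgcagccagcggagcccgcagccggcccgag

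The GC box was found in the promoters of PROCR, F3, TFPI2, F2RL1 and PROS1, and 45.0% of 35116 promoters of the same length hold it. The TFPI window, which lies inside the longer GENCODE gene, had none, and it had a GC content of 39.3% against a median of 58.7% over all promoters. F3 and TFPI2 held the letters TGANTCA, a motif of the AP-1 factors that 7.70% of promoters hold on either strand. In F3, where AP-1 is known to act, it was found 2 times, beginning at −223 and −210 from the start, and it is in capitals here.

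F3, chr1:94541710-94542009, minus strand: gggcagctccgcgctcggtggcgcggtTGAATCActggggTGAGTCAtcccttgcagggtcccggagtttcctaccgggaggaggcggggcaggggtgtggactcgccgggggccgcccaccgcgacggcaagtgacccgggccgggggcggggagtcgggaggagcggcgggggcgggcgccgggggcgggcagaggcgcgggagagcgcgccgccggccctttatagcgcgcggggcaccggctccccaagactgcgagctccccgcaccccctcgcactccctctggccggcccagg

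TFPI2 held the AP-1 letters beginning at −87 and an NF-kB motif beginning at −152, a motif that 11.3% of promoters hold. No promoter of the 6 held the letters TATAAA on the gene's strand or CACGTG on either, each found in 7.30% of promoters. The CACCC box, searched as CACCC on both strands, was in F3, TFPI2 and PROS1 and in 59.9% of all promoters. These matches describe the letters and are not binding sites.

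The anticoagulant genes PROCR, TFPI and PROS1 had a higher mean FPKM than tissue factor in siControl cells. PROCR was highest at an FPKM of 17.0 ± 4.27 (SD, n = 3), above 83.2% of the 13317 genes that had a mean FPKM of at least 0.5. TFPI followed at 9.52 ± 4.0 and TFPI2 at 7.88 ± 1.44 (SD, n = 3 each). F2R was at 6.57 ± 1.33 and PROS1 at 4.56 ± 1.33 (SD, n = 3 each). The lowest were THBD at 1.59 ± 0.835, F3 at 1.44 ± 0.405 and F2RL1 at 1.16 ± 0.606 (SD, n = 3 each), which were above 21.7%, 19.8% and 15.5% of the tested genes. PROS1 and THBD were the only neighbours in this order whose siControl ranges did not overlap. PROCR, for example, was above TFPI in 2 of 3 libraries.

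After siSRPX2-1 the order changed in 1 place, where TFPI2 (10.1 ± 1.2 FPKM) and TFPI (8.73 ± 2.80 FPKM) exchanged ranks, with ranges that overlapped (SD, n = 3 each). THBD kept rank 6, but its FPKM of 4.53 ± 1.47 now overlapped that of PROS1 (4.73 ± 1.27) and lay wholly above F3 at 1.43 ± 0.124 (SD, n = 3 each). In bulk RNA, a larger share of cells that express a gene and more of its RNA per cell cannot be told apart.

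**Figure D1:**
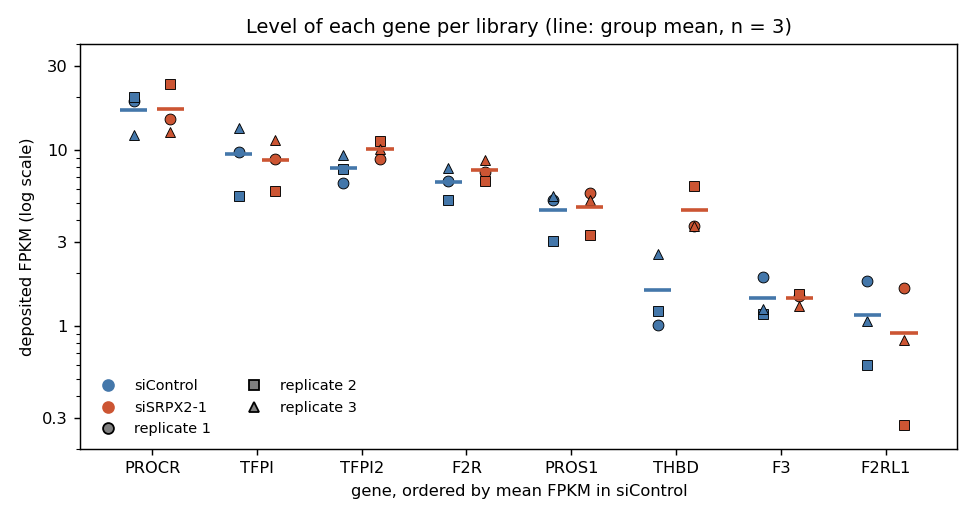
Deposited FPKM on a log axis for the 8 genes, ordered by their siControl mean, with 1 point per library, the marker giving the replicate number and the line the group mean (n = 3). PROCR lies highest and F2RL1 lowest in both groups, and THBD is the gene whose siControl and siSRPX2-1 points do not overlap.

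THBD, the receptor that turns thrombin into an activator of protein C, was higher in every siSRPX2-1 library than in any siControl library. It had 295, 397 and 821 reads after siControl and 1238, 2010 and 1127 after siSRPX2-1 in replicates 1, 2 and 3. As CPM (counts scaled to library size with TMM factors) these were 4.76, 5.23 and 11.7 after siControl and 17.0, 27.1 and 16.3 after siSRPX2-1. The lowest siSRPX2-1 library was replicate 3 and the highest siControl library was also replicate 3, so this pair was the closest. The estimated log2 difference was 1.48 (standard error 0.411), 2.78-fold, rank 16 among the 13317 tested genes. In the deposited FPKM the groups were apart as well, with 1.01, 1.21 and 2.55 against 3.67, 6.22 and 3.70. These are the values for which THBD was chosen.

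The size of the THBD difference varied between the pairs. It was 3.57-fold in pair 1 (95% interval 3.14 to 4.06), 5.18-fold in pair 2 (4.65 to 5.79) and 1.39-fold in pair 3 (1.27 to 1.52), where intervals cover counting error only. The intervals of the 3 pairs do not overlap. Pair 3, with the smallest THBD difference, was also the pair in which SRPX2 had fallen least. Pairs 1 and 2 differed in THBD at SRPX2 ratios of 0.49 and 0.48. In pair 3 the siControl library was high in THBD (11.7 CPM, against 4.76 and 5.23 in siControl replicates 1 and 2). A link between the THBD and SRPX2 ratios was not tested. Without both replicate 3 libraries the log2 difference of THBD was 2.15, and without both replicate 2 libraries it was 1.01, both settings chosen after the values were seen.

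TFPI2, a Kunitz inhibitor of plasmin and of tissue factor with factor VII that is often deposited in the matrix, showed the next highest log2 difference at 0.33 (standard error 0.176). Its CPM was 18.4, 20.4 and 26.0 after siControl and 25, 29.8 and 26.8 after siSRPX2-1. The groups overlapped, since siControl replicate 3 lay above siSRPX2-1 replicate 1. The ratio within pairs was 1.36, 1.46 and 1.03, smallest in pair 3, where the 95% interval of 0.966 to 1.10 included no difference. 

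F2R, the thrombin receptor, had a CPM of 30.7, 22.2 and 35.5 after siControl and 34.0, 28.5 and 38.1 after siSRPX2-1. The groups overlapped, and each siSRPX2-1 library lay above the siControl library of its number, by 1.11, 1.28 and 1.07 times. F2RL1, the receptor for trypsin-like proteases, had lower estimates within pairs, at 0.897, 0.465 and 0.745 of siControl, and the 95% interval of pair 1 (0.778 to 1.03) included no difference. Its CPM was 6.15, 1.88 and 3.56 after siControl and 5.51, 0.876 and 2.65 after siSRPX2-1. The groups overlapped widely, and the log2 difference of −0.36 had a standard error of 0.704. Without 1 library it ranged from −1.13 to 0.15, and it was above 0 without siControl replicate 1 (0.15) or without siSRPX2-1 replicate 2 (0.08). In siSRPX2-1 replicate 2, F2RL1 rested on 65 reads. The FPKM ratio of F2R to F2RL1 was 3.69, 8.69 and 7.38 after siControl and 4.56, 24.4 and 10.6 after siSRPX2-1, higher within each pair and overlapping between the groups.

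The other genes moved in both directions between pairs. PROCR had a log2 difference of −0.01 (standard error 0.285) and pair ratios of 0.782, 1.2 and 1.01. F3 had a log2 difference of −0.04 (standard error 0.281), with pair ratios of 0.769, 1.32 and 0.985. TFPI, at −0.16 (standard error 0.391), had pair ratios of 0.909, 1.08 and 0.815, and PROS1, at 0.03 (standard error 0.325), had 1.09, 1.10 and 0.905. None of these 4 kept a direction over the pairs, and in each of them pair 2 had the highest ratio.

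**Figure D2:**
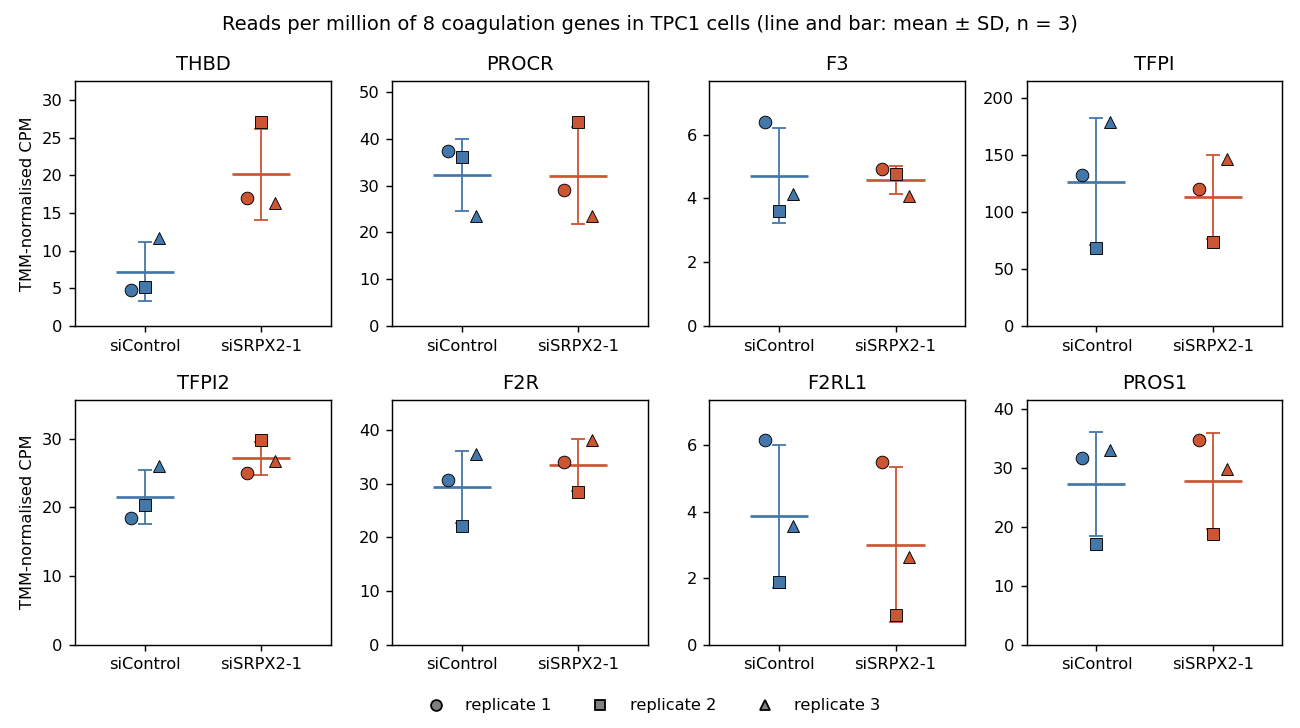
TMM-normalised CPM of each gene in the 6 libraries, on linear axes from 0, with the marker giving the replicate number and the line and bar the mean ± SD (n = 3). The THBD groups are apart (4.76 to 11.7 against 16.3 to 27.1 CPM), and the groups of the other 7 genes overlap.

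Over the list, 4 genes had a higher and 4 a lower estimate, a split that rests on single libraries. Leaving out 1 library turned the sign for PROCR (−0.29 to 0.17), F3 (−0.20 to 0.24), TFPI (−0.46 to 0.18), F2RL1 and PROS1 (−0.22 to 0.24), and kept it for THBD, TFPI2 and F2R. Their median log2 difference was 0.01, against −0.00622 over all tested genes. Of the 8, 0 passed an adjusted p of 0.05 in edgeR (0% of the 13317 tested genes did), and 1, THBD, had an unadjusted p under 0.05 (0.496% of the tested genes). A fold over 2 was reached by 1 of the 8 and by 0.646% of the tested genes. None of the 8 was among the 3 genes that DESeq2 called, and limma called 0 genes. With the replicate number as a block the log2 difference of THBD was 1.56 (standard error 0.311), that of TFPI2 0.34 (0.118), and still 0 of the 8 passed, against 0.0451% of the tested genes, while 2 had a p under 0.05 before adjustment, against 9.21%. Groups that did not overlap were found for 1 of the 8 and for 3.24% of the tested genes (1.58% higher and 1.65% lower). A direction shared by all 3 pairs was found for 4 of the 8, THBD, TFPI2, F2R and F2RL1, and for 32.4% of the tested genes. Because THBD was chosen on this contrast, nothing is read from these shares.

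**Figure D3:**
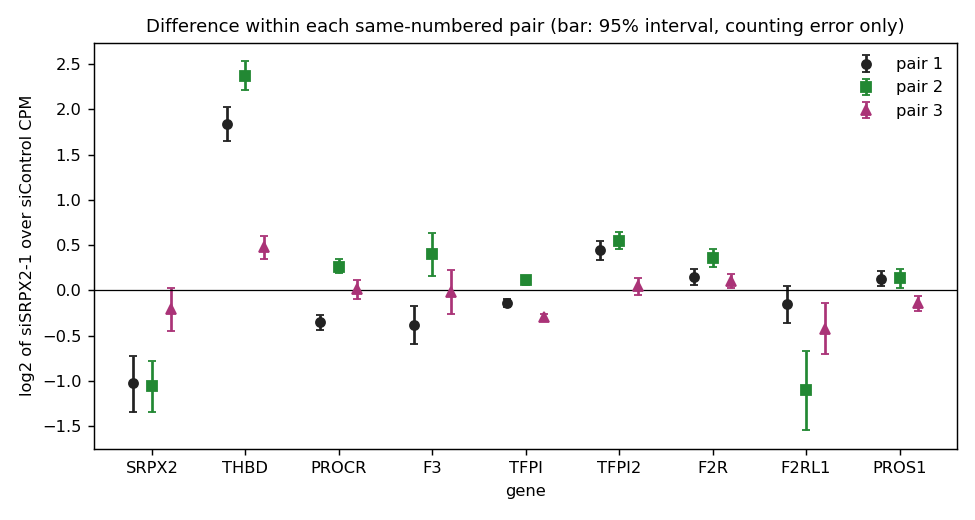
Log2 ratio of siSRPX2-1 to siControl CPM within each pair of libraries with the same replicate number, for SRPX2 and the 8 genes, with 95% intervals from counting error only. THBD lies above 0 in all 3 pairs (1.83, 2.37 and 0.48), and SRPX2 and F2RL1 lie below 0 in all 3.

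Ratios between the genes, taken per length from FPKM, put the THBD difference beside its partners. THBD to PROCR was 0.0536, 0.0606 and 0.211 after siControl and 0.245, 0.261 and 0.291 after siSRPX2-1, so the groups did not overlap. THBD to F3 was 0.533, 1.04 and 2.04 after siControl and 2.48, 4.09 and 2.87 after siSRPX2-1. Both of these ratios hold the THBD values for which that gene was chosen, so their distance between the groups is no further result. F3 to TFPI, the ratio of tissue factor to its inhibitor, was 0.197, 0.214 and 0.0929 after siControl and 0.166, 0.260 and 0.113 after siSRPX2-1. This ratio overlapped between the groups and was lowest in both replicate 3 libraries.

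The replicate number was a second source of difference, and the genes had not been chosen on it. It was tested in edgeR with the siRNA group as a term (quasi-likelihood F test with 2 degrees of freedom, for any difference among replicates 1, 2 and 3). Each adjusted p given below beside a replicate 2 estimate comes from this F test and is not a test of that estimate. Of the 8 genes 5 passed an adjusted p of 0.05, or 62.5%, close to the 55.2% of all 13317 tested genes that passed. Before adjustment the share was 61.7% of all tested genes, and again 5 of the 8. What the number marks is not stated. TFPI, F2RL1, PROS1 and F2R were lower in replicate 2 and PROCR was higher, while over all genes 28.2% passed with replicate 2 lower and 27.0% with replicate 2 higher.

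TFPI had the smallest adjusted p of the 8 in edgeR. Its CPM was 68.2 and 73.8 in the replicate 2 libraries, against 132 and 120 in replicate 1 and 179 and 146 in replicate 3, siControl first. Replicate 2 differed from the mean of replicates 1 and 3 by −1.0 on the log2 scale (standard error 0.0868, adjusted p = 0.000107 from the edgeR F test). PROS1, the cofactor of protein C, was at 17.1 and 18.8 CPM in replicate 2 and between 29.8 and 34.6 in the other 4 libraries (−0.85, standard error 0.107, adjusted p = 0.000901 from the same edgeR test). F2RL1 differed by −1.69 (standard error 0.271, adjusted p = 0.00145 from edgeR), the widest estimate of the 8 in edgeR. In DESeq2 F2RL1 was at −1.68 and TFPI at −1.0, and in limma on log2(FPKM + 0.1) at −1.43 and −0.92. In limma on log2(FPKM + 1) the order turned, with F2RL1 at −0.69 and TFPI at −0.82. For F2RL1 replicate 1 was above replicate 3 by 0.94 in edgeR (standard error 0.285). For TFPI, PROS1, F2RL1 and F2R both replicate 2 libraries lay below the other 4, as they did for 27.9% of the tested genes, and 0 of the 8 had both above the other 4, against 27.6%.

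F2R differed less, at −0.46 (standard error 0.0972, adjusted p = 0.00899 from edgeR), and its call was lost without siControl replicate 2 (adjusted p = 0.0536). PROCR was higher in replicate 2 by 0.52 (standard error 0.126, adjusted p = 0.00767 from edgeR). Its CPM was 36.2 and 43.6 in replicate 2, 37.3 and 29.1 in replicate 1 and 23.4 and 23.5 in replicate 3, so replicate 3 was the lowest in both groups. THBD, TFPI2 and F3 did not pass (adjusted p = 0.287, 0.211 and 0.210 from edgeR). For THBD the test passed without siControl replicate 2 (adjusted p = 0.00715), without siSRPX2-1 replicate 2 (0.0148) or without siSRPX2-1 replicate 3 (0.00125), with replicate 2 above the others in the first setting and below them in the latter ones.

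Some markers of other cell types moved with the replicate number, as 55.2% of all tested genes did. Over all tested genes 28.2% passed with replicate 2 lower. CD14, the only tested gene of 5 monocyte and leukocyte markers, was lower in replicate 2 (−1.83, adjusted p = 0.00693 from edgeR), and so was LUM, the only tested gene of 6 fibroblast markers (−1.17, adjusted p = 0.00218 from edgeR). The summed FPKM of the monocyte list lay between 0.796 and 2.30 after siControl and between 0.785 and 1.44 after siSRPX2-1, with at most 4 reads of PTPRC in any library. The fibroblast list lay between 3.01 and 9.06 after siControl and between 2.74 and 5.84 after siSRPX2-1, with no row for DCN. Their part in the differences between replicate numbers was not tested.

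**Figure D4:**
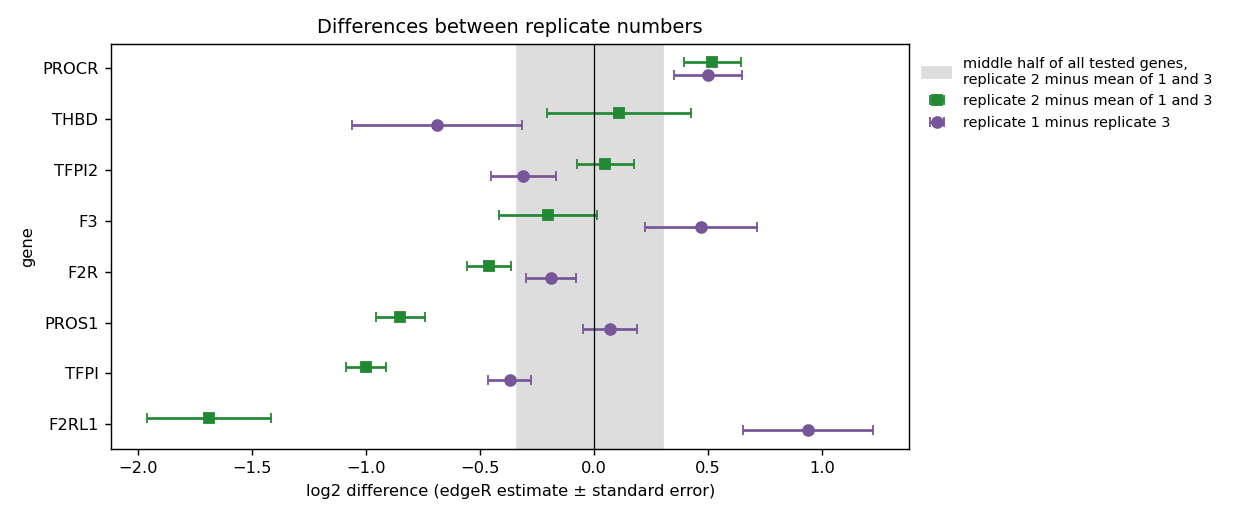
Log2 differences between replicate numbers from edgeR with standard errors, as replicate 2 minus the mean of 1 and 3 (squares) and replicate 1 minus replicate 3 (circles), with the interquartile range of the former over all tested genes (−0.339 to 0.303) shaded. The squares of F2RL1, TFPI, PROS1 and F2R lie to the left of that range and that of PROCR to its right.

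The 4 genes with a wide range over the libraries were compared with all other tested genes by their profiles, as the root mean square difference of centred log2 CPM over the 6 libraries. The genes closest to THBD were AC012321 (0.294), AP002990 (0.305), AL031714 (0.394), AC138811 (0.445) and AC016397 (0.462), against a median of 0.903 over all tested genes. All 5 carry clone names, and AC012321 was at 0.0659 CPM in its lowest library. Their log2 differences between the siRNAs ranged from 1.06 to 2.26, and a rise follows from choosing profiles like that of THBD. The genes closest to TFPI were CACFD1 (0.0578), HM13 (0.0853), which codes for a signal peptide peptidase, and the transcription factor gene GATA6 (0.0874). F2RL1 was closest to DBP (0.115), a circadian transcription factor gene, ID2 (0.129) and the glycosyltransferase gene A4GALT (0.137), and PROS1 to MEX3A (0.0496), TNNT1 (0.0519) and ZFYVE28 (0.0536). All these profiles come from the same 6 libraries, which are 3 pairs.

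Beyond the 8 genes, the wider coagulation system was read from lists. Of the 13317 tested genes, edgeR and limma called 0 between the siRNAs, DESeq2 3 and edgeR with the replicate block 6. None of the listed genes was among these, and with so few calls nothing is read from that. The clotting zymogens and cofactors of plasma, most of them made by the liver, were low. Of 16 such genes 0 reached a mean FPKM of 0.5, F9 and F13A1 had no row, and the highest were F12 (0.467) and the fibrinogen chain gene FGB (0.428). Protein C itself (PROC) had between 0 and 7 reads per library, beside a receptor (PROCR) and cofactor (PROS1) that were expressed. Of 9 inhibitors and protein C partners 3 were tested: ANXA5, an annexin that covers procoagulant phospholipid, at a mean FPKM of 140, the thrombin inhibitor gene SERPINE2 at 4.01 and A2M at 0.509. In edgeR 0 of these 3 passed an adjusted p of 0.05 between the siRNAs (0% of all tested genes). At an unadjusted p under 0.05 there were also 0 (0.496% of all tested genes). By replicate number ANXA5 alone of the 3 passed (−0.33 in replicate 2, adjusted p = 0.00576 from edgeR), where 55.2% of all tested genes did.

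Fibrinolysis was the abundant arm. The plasmin receptor genes S100A10 and ANXA2 had a mean FPKM of 269 and 198, and the urokinase gene PLAU had 131, while plasminogen (PLG) had no row. THBS1 (60.7) and the urokinase receptor gene PLAUR (8.89) were lower. Between the siRNAs 5 of 7 tested genes had higher estimates and 2 lower ones. In edgeR 0 passed an adjusted p of 0.05 (0% of all tested genes) and 0 an unadjusted p of 0.05 (0.496%). With the block 2 were under an unadjusted p of 0.05 (9.21% of all tested genes). By replicate number 6 of 7 passed in edgeR, 4 with replicate 2 higher and 2 lower, where 55.2% of all tested genes passed (27.0% higher and 28.2% lower). PLAU had 477 and 649 CPM in replicate 2, 523 and 535 in replicate 3 and 174 and 204 in replicate 1. For PLAU the estimate of replicate 2 against the mean of the others was 0.82 (adjusted p = 3.12e-05 from the edgeR F test). Replicate 1 was the lowest, and siControl replicate 2 lay below both replicate 3 libraries. For THBS1 the estimate was −1.31 (adjusted p = 0.000151 from the edgeR F test).

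The genes that carboxylate and export clotting factors were expressed, among them VKORC1 (43.3 FPKM), LMAN1 (39.3), MCFD2 (30.5), FURIN (20.4), VKORC1L1 (10.6) and GGCX (6.17). Of 6 tested genes 2 had higher and 4 lower estimates after siSRPX2-1. In edgeR 0 passed an adjusted p of 0.05 (0% of all tested genes) and 0 an unadjusted p of 0.05 (0.496%). Among the genes that go with the protease-activated receptors, F2RL2 (PAR3) was at a mean FPKM of 3.71, between F2R and F2RL1, and F2RL3 (PAR4) had between 0 and 8 reads. The GTPase, G protein and arrestin genes were led by RHOA (233 FPKM), GNAI2 (36.7), GNA12 (16.8), GNAQ (14.6), GNA13 (14.1) and GNA11 (11.5). Of 9 tested genes 4 had higher and 5 lower estimates, and again 0 passed either threshold in edgeR without the block (0% and 0.496% of all tested genes). With the block 1 of these 9 and 0 of the 6 above were under an unadjusted p of 0.05 (9.21% of all tested genes). By replicate number 5 of these 9 and 5 of the 6 above passed in edgeR, where 55.2% of all tested genes did. Of 8 other Kunitz inhibitor genes, APP (283 FPKM) and APLP2 (149) alone were tested. Their log2 difference between the siRNAs was 0.01 in both cases. Replicate 2 was lower in both, with log2 estimates of −1.01 and −0.95 (adjusted p = 5e-05 and 5.77e-05 from edgeR). Over all tested genes 28.2% passed with replicate 2 lower.

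Transcription factors known to act on THBD or F3 in other cells were also listed. The most abundant were FOSL1 (96.9 FPKM), HIF1A (92.4), JUN (49.4), KLF6 (37.0), YY1 (16.6) and SP1 (16.0). Of 12 tested genes 7 had higher and 5 lower estimates after siSRPX2-1. In edgeR 0 passed an adjusted p of 0.05 (0% of all tested genes) and 0 an unadjusted p of 0.05 (0.496%). With the block 0 passed after adjustment (0.0451% of all tested genes), and 3 had a p under 0.05 before it (9.21%). These were KLF2, FOSL1 and HIF1A, with log2 differences of 0.68, 0.32 and −0.28. KLF2 and KLF4 both induce THBD in endothelial cells, and KLF4 was at 0.02. The CPM of KLF2 was 2.05, 4.98 and 1.43 after siControl and 3.58, 7.36 and 2.65 after siSRPX2-1. The groups overlapped, and each siSRPX2-1 library lay above its siControl partner, as for 15.5% of all tested genes. For KLF2 (log2 difference 0.68) edgeR gave an unadjusted p of 0.282, and 0.00442 with the block (adjusted p = 0.413). EGR1, of the same list, was at 0.79 (unadjusted p = 0.362, and 0.262 with the block, from edgeR). A part of these genes in the THBD difference was not tested. By replicate number 8 of the 12 passed in edgeR, 4 with replicate 2 higher and 4 lower. Of all tested genes 55.2% passed (27.0% higher and 28.2% lower). Replicate 2 was higher for KLF2 (1.40, adjusted p = 0.0013 from edgeR) and lower for EGR1 (−2.05, adjusted p = 0.00779 from edgeR).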

How the data were processed

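RNA of 6 TPC1 samples was sequenced. Per gene, the deposited values are raw read counts and FPKM. The authors computed the FPKM with ballgown after StringTie 2.1.6. DESeq2 and edgeR are named in the submitters' processing notes. For aligner, genome build, strandedness and counting, the sources used here give nothing. GENCODE release 29 held 30496 of the 31348 gene IDs, with 30437 starts no more than 100000 bases apart.

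Counts of 13317 genes (mean FPKM 0.5 or more) were fitted with edgeR 4.0.16 in R 4.3.3 (TMM, glmQLFit, glmQLFTest, Benjamini-Hochberg adjustment over all tested genes), as siSRPX2-1 against siControl and as replicate number with the siRNA group as a term. Pseudocounts of 0.5 CPM were used for profiles. Intervals of read ratios are exact binomial (95%) and cover counting error only. The fits were tested on simulated data. Deviations from the group means were correlated between libraries of 1 number (0.640, 0.822 and 0.706, against 0.117 at most between other numbers), which with the numbers in the titles is the ground for reading them as pairs. Within groups no libraries agreed within counting error (mean chi-square of 115 or more), and all 6 were kept.

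The 8 genes and the lists were chosen with earlier results of these data known. Named genes were the 8, SRPX2, up to 6 of the most abundant tested genes of each list, those past an adjusted p of 0.05, and the closest profiles of THBD and of genes with over 2-fold range. Others named were chosen after their values were seen. Some listed genes are not reported here. Alternatives were other filters, scalings, DESeq2 1.42.0, limma 3.58.1 on log2 FPKM, the replicate block and leaving out libraries. Figures were drawn with matplotlib 3.10.9.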

Additional observations from a re-analysis of the deposited data

How the results depend on the processing

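Between the siRNAs 0 genes passed an adjusted p of 0.05 in edgeR. DESeq2 called 3 and edgeR with the replicate block 6, and none of the 8 genes was among the 6. Leaving out each library in turn gave 0 to 0 calls. THBD had a positive difference in these settings, between 1.11 and 1.56 over the other settings and between 1.2 and 2.01 without 1 library. It was 1.01 without both replicate 2 libraries and 2.15 without both replicate 3 libraries. THBD was chosen on this contrast and all these fits draw on the same 6 libraries, so they do not test its difference. For the replicate number, edgeR called 7352 genes and between 6150 and 7199 without 1 library, and of the 8 genes 5 in every other setting and 5 to 6 without 1 library. The estimate of replicate 2 against 1 and 3 turned without 1 library for genes that had not passed, with ranges of −0.57 to 0.67 for THBD, −0.51 to 0.08 for F3 and −0.11 to 0.20 for TFPI2, and for TFPI2 it was 0.00 with upper-quartile factors. The cause was not tested. The order of levels kept 8 of 8 ranks as TPM and 6 with medians. Of the 5 profiles closest to THBD 3 were shared when FPKM took the place of CPM. The block changed no call of the 8 genes. Depth limits F2RL1 most, with 65 reads in its lowest library.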
